A study of Mus musculus with 9 samples.

Results

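Connexins and pannexins are families of membrane channel proteins. Connexins assemble into hexameric hemichannels that dock between neighbouring cells to form gap junctions, which pass ions and small molecules from cytoplasm to cytoplasm. Pannexins form large-pore channels in a single membrane and are best known for releasing ATP from cells. In pancreatic islets, gap junctions made of the Gjd2 product Cx36 couple beta cells electrically and bring their calcium oscillations and insulin release into step. The 10 genes described here are a list of 8 connexin genes (Gjd2, Gjc1, Gja1, Gja4, Gja5, Gjb1, Gjb2 and Gjd4) and 2 pannexin genes (Panx1 and Panx2), found by symbol in the GENCODE M21 annotation of the mouse genome build GRCm38. They are 10 of the 55536 genes in the deposited tables, and all 10 were present there. Only 3 of them, Gjd2, Panx1 and Panx2, had enough reads to be among the 15896 genes tested, and the other 7 are described by their counts.

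RNA was measured in 9 libraries of sorted islet cells from C57B/L6 mice at 12 weeks of age. The beta-enriched subset was sorted as CD24low CD71+, the alpha-enriched subset as CD24low CD71- and the delta-enriched subset as CD24high, with 3 libraries each. All 3 subsets came from islets that had been kept in culture overnight before they were dispersed, stained and sorted. The labels do not say whether replicates were separate animals or pools, so p-values measure only the spread between these libraries. Libraries held 5663141 to 9529920 expected counts. Beta replicate 2 stood apart, with 34.42% of its counts at 1 ribosomal RNA locus, against 3.15% to 5.37% in the other 8 libraries. The subsets carried the hormone and identity genes of their labels. Summed over 8 beta cell markers, the level was 50860 to 61990 CPM in beta-enriched, 4382 to 6401 CPM in alpha-enriched and 5863 to 7132 CPM in delta-enriched libraries. Iapp made up most of the delta-enriched sum, with 51159, 37462 and 46336 of 52221, 38772 and 51469 counts in replicates 1, 2 and 3. Summed alpha cell markers ran from 469.7 to 698.4 CPM in beta-enriched, 81850 to 101400 CPM in alpha-enriched and 2558 to 6787 CPM in delta-enriched libraries. Summed delta cell markers ran from 3.26 to 4.62 CPM in beta-enriched, 116.4 to 161.1 CPM in alpha-enriched and 15730 to 22110 CPM in delta-enriched libraries. The 3 PP cell markers summed to 62.4 to 90.4 CPM in beta-enriched, 2747 to 3832 CPM in alpha-enriched and 4358 to 6277 CPM in delta-enriched libraries. They did not share this order. Pyy had 7629 to 11203 counts in alpha-enriched and 21105 to 27322 counts in delta-enriched libraries. Ppy had 11739 to 19131 counts in alpha-enriched and 10807 to 14187 counts in delta-enriched libraries, and Sertm1 had 95 to 138 and 2 to 9 counts. In such bulk samples, fewer cells of a type and less RNA per cell cannot be told apart. CPM is the count relative to the TMM-adjusted library total. TPM is also scaled by transcript length and is used wherever genes are compared with each other.

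The 2 promoters below belong to the members with a RefSeq promoter entry whose levels could be tested, Gjd2 and Panx1, and cover the 250 bases before and the first 50 bases after the start of the gene in build GRCm38.p6. Capitals mark TGACG, the core letters of the cAMP response element, and GGGCGG, the GC box that binds Sp1-type factors, each searched on both strands. The Gjd2 window is chr2:114013570-114013869 on the minus strand.
Gjd2: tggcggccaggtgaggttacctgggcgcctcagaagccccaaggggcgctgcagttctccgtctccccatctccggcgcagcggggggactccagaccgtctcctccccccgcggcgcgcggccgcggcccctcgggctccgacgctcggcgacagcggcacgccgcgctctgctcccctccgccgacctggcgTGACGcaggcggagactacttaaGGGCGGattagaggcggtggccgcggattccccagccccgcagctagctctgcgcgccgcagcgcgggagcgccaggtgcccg
The Panx1 window is chr9:15045429-15045728, also on the minus strand.
Panx1: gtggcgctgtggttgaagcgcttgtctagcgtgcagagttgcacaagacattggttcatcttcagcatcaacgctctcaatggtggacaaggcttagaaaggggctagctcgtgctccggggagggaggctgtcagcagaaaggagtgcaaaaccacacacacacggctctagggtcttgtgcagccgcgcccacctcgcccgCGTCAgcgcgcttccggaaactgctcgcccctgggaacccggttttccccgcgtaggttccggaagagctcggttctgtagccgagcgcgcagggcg
The Gjd2 window had a GC content of 75.0% and 41 CpG dinucleotides, where 96.5% of the 32851 promoter windows of the same length had fewer and the median was 7. TGACG began 56 bases before the start of Gjd2 and GGGCGG 33 bases before it. The Panx1 window had a GC content of 61.3% and 25 CpG dinucleotides, with TGACG on the opposite strand (printed as CGTCA) 47 bases before the start and no GGGCGG. Among all windows, 20.8% held TGACG and 35.7% held GGGCGG, so both matches are common. The E box CANNTG was found 2 times for Gjd2 and 0 times for Panx1, and 72.3% of all windows held it. TATAAA, present in 13.6% of all windows, was in neither. Both windows also lacked the letters TTCAGCACC and GGACAGC, the parts of the element bound by the repressor REST, which stood in 0.371% and 6.56% of all windows. Of the 10 members, 7 had an entry in the promoter table.

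Gjd2, which encodes Cx36, was by far the most abundant member in every subset and was higher in the beta-enriched subset than in both others. The gene (ENSMUSG00000068615) lies at 2:114009601-114013619 on the minus strand, with 1 annotated transcript of 2 exons. Per length, its level was 33.1, 25.1 and 38.7 TPM in the beta-enriched libraries, 7.68, 5.06 and 7.74 TPM in the alpha-enriched libraries and 3.92, 9.46 and 6.18 TPM in the delta-enriched libraries. The lowest beta-enriched library therefore lay above the highest library of either other subset, while the alpha- and delta-enriched ranges overlapped. Among protein-coding genes ordered by TPM, Gjd2 ranked 895 to 1055 in beta-enriched libraries, 4331 to 6057 in alpha-enriched libraries and 3741 to 6087 in delta-enriched libraries.

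On the TMM-scaled level that the test used, Gjd2 stood at 182, 163 and 164 CPM in the beta-enriched libraries, from 1414, 952 and 991 counts. The alpha-enriched libraries had 43.75, 28.1 and 31.9 CPM, from 384, 223 and 226 counts. The delta-enriched libraries had 28.95, 52.5 and 32.4 CPM, from 212, 347 and 252 counts. The means were 169 ± 10.5 CPM in beta-enriched, 34.6 ± 8.17 CPM in alpha-enriched and 37.9 ± 12.7 CPM in delta-enriched libraries (SD, n = 3 each). Against alpha, the beta-enriched subset was 4.89-fold higher (95% interval 3.57 to 6.70), a log2 fold change of 2.29 with SE 0.21 and an adjusted p of 2.26e-06 from edgeR's quasi-likelihood test. Against delta it was 4.48-fold higher (95% interval 3.27 to 6.13), a log2 fold change of 2.16 with SE 0.21 and an adjusted p of 3.29e-06. These comparisons share the beta-enriched libraries. An exact permutation test on CPM gave p = 0.1 for each, the smallest value that 3 libraries against 3 allow. Alpha against delta gave a log2 fold change of -0.13 with SE 0.21, an interval from -0.58 to 0.33 and an adjusted p of 0.723, so a difference in either direction up to the ends of that interval, 0.668-fold to 1.26-fold, could not be told from the spread. Gjd2 remained past the threshold in beta against alpha and in beta against delta under all 20 alternative settings tried.

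**Figure D1:**
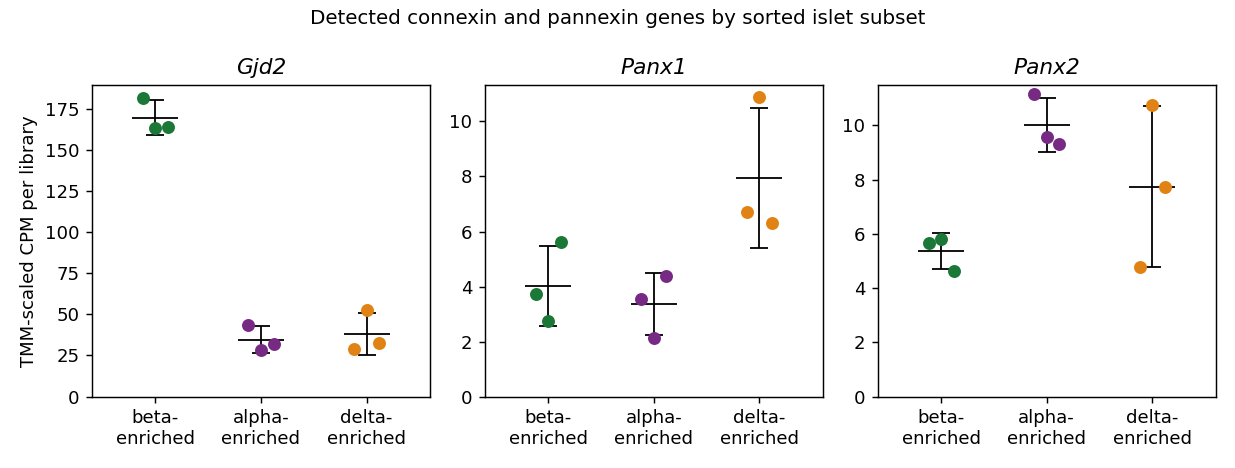
TMM-scaled CPM of Gjd2, Panx1 and Panx2 (vertical axes starting at 0, with a different range for each gene) in the 3 beta-enriched, 3 alpha-enriched and 3 delta-enriched libraries, each point 1 library, with the mean (long line) and SD (bars). Gjd2 lies between 163 and 182 CPM in all beta-enriched libraries and at 52.5 CPM or lower elsewhere, while both pannexins stay at or below 11.2 CPM in all 9 libraries.

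Gjd2 made up most of the connexin RNA that was measured in every library. Summed over 20 connexin genes (the 8 members and 12 further genes of the family), its share of TPM was 97.3 ± 1.15% in beta-enriched, 88.7 ± 5.14% in alpha-enriched and 87.9 ± 10.6% in delta-enriched libraries (SD, n = 3 each). The lowest shares were 76.1% in delta replicate 3, where the family summed to 8.12 TPM, and 82.8% in alpha replicate 2, where it summed to 6.11 TPM. By counts in place of TPM the mean shares were 98.1%, 92.5% and 91.3% in beta-, alpha- and delta-enriched libraries. In delta replicate 3, Gja6, a connexin gene outside the 8 members, held 0.83 of the 8.12 TPM. The origin of its reads is uncertain, as described below. No test was made of a share.

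The Gjd2 level in the delta-enriched libraries was set beside that of beta cell marker genes there. As a percentage of the beta-enriched mean, Gjd2 stood at 17.1% to 31.0% in the delta-enriched libraries (mean 22.4%). In the same libraries the means of 6 of the 8 beta cell markers were far lower, at 0.885% for the insulin gene Ins1, 0.737% for Ins2, 0.808% for the insulin gene activator Mafa, 0.870% for the glucose transporter gene Slc2a2, 0.854% for Ucn3 and 1.02% for G6pc2. Nkx6-1, a beta cell transcription factor gene, was at 6.10% (4.35% to 8.12%), and Iapp, which encodes amylin, at 37.5% (34.3% to 42.3%). Iapp was thus the only marker of the 8 with a higher mean than Gjd2 by this measure in the delta-enriched libraries.

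In the alpha-enriched libraries Gjd2 was at 16.6% to 25.8% of the beta-enriched mean (mean 20.4%). The 8 beta cell markers were closer to it there. Their means ran from 4.11% for Ucn3, through 8.25% for Ins1, 8.96% for Ins2, 10.5% for Iapp and 11.3% for G6pc2, to 18.7% for Nkx6-1. The Nkx6-1 libraries, at 16.5% to 19.9%, overlapped those of Gjd2. How much of the Gjd2 level in either subset comes from beta cell RNA was not tested.

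**Figure D2:**
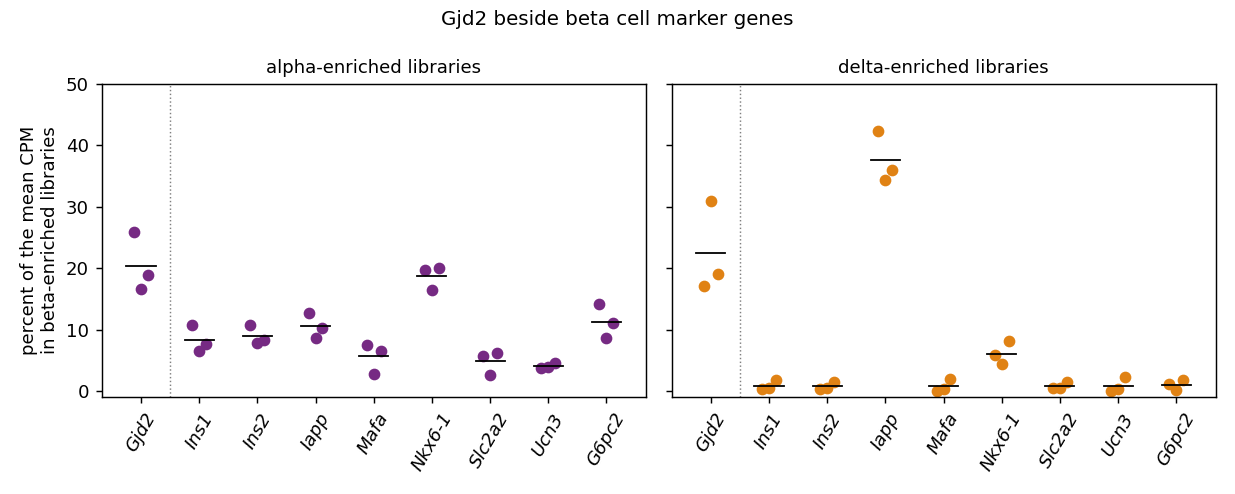
Level of Gjd2 and of 8 beta cell marker genes in the alpha-enriched libraries (left) and delta-enriched libraries (right), each as a percentage of that gene's mean CPM in the beta-enriched libraries (vertical axis), with 1 point per library and a line at the mean. In the delta-enriched libraries Gjd2 averages 22.4% while the insulin genes stay below 2%, and Iapp alone averages more.

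A transcript that begins beside Gjd2 on the other strand was also higher in the beta-enriched subset than in both others. A530058N18Rik (ENSMUSG00000087694), a non-coding gene at 2:114013602-114032292 on the plus strand, shares 18 bases with the first exon of Gjd2. Its level was 91.9 ± 6.71 CPM in beta-enriched, 46.4 ± 2.75 CPM in alpha-enriched and 43.9 ± 10.9 CPM in delta-enriched libraries (SD, n = 3 each). The log2 fold change was 0.99 with SE 0.15 in beta against alpha (adjusted p = 7.09e-05) and 1.07 with SE 0.15 in beta against delta (adjusted p = 2.82e-05), and in alpha against delta it was 0.08 with SE 0.15 (adjusted p = 0.749). Its beta-enriched excess was smaller than that of Gjd2 in both comparisons, a difference between genes that was not tested. The kit keeps strand, but how strand was set in counting was not stated in the sources used here, so reads in the shared bases cannot be assigned with certainty. A second entry under the same symbol (ENSMUSG00000092201) shares 57 bases with Gjd2 and had too few reads to be tested. It averaged 0.977 ± 0.390 CPM in beta-enriched, 0.673 ± 0.826 CPM in alpha-enriched and 1.79 ± 2.83 CPM in delta-enriched libraries (SD, n = 3 each), with its highest level, 5.05 CPM, in delta replicate 1.

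The other 7 connexin members were at or near 0, and none was tested. Gjc1, which encodes Cx45 of heart conduction tissue and smooth muscle, and Gja4, which encodes the endothelial Cx37, had 0 counts in all 9 libraries. Over the 65815603 expected counts of the series a count of 0 allows up to 3 counts, or 0.0456 CPM, and within a single library 0.315 to 0.530 CPM. These limits are relative to raw library totals, without the TMM adjustment, and are not comparable with the other CPM values. The lowest, 0.315, is that of beta replicate 2, with 34.42% of its counts at the ribosomal RNA locus. On the TMM-adjusted scale 2 counts in that library already stand at 0.343 CPM, so its limit there is higher. Gjb1, which encodes Cx32, the main connexin of hepatocytes and acinar cells, had 1 count in all, in delta replicate 1. Gjd4, which encodes Cx39, had 2 counts in beta replicate 1, 1 count in alpha replicate 2 and 3 counts in delta replicate 3. Gja5, which encodes Cx40 of arterial endothelium and atrium, summed to 8.30 expected counts with no more than 2.58 in a library. An exon of Gja5 overlaps Gpr89 on the opposite strand, which leaves its few reads uncertain. Endothelial markers were scarce in every library, with Plvap and Tie1 at 0 in all 9 and a sum over 8 markers of 1.67 to 3.09 CPM in beta-enriched, 2.12 to 4.41 CPM in alpha-enriched and 3.41 to 9.12 CPM in delta-enriched libraries. These upper limits cover counting error only.

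Gja1 (ENSMUSG00000050953, 10:56377330-56402513), which encodes Cx43, the most widely expressed connexin, had 0 counts in all 3 beta-enriched libraries. The alpha-enriched libraries had 0, 7 and 9 counts (0, 0.881 and 1.27 CPM), and the delta-enriched libraries 0, 7 and 5 counts (0, 1.06 and 0.642 CPM). Reads were thus found in 2 of 3 libraries of each of these subsets, and replicate 1 of each overlapped the beta-enriched libraries at 0. Smooth muscle, pericyte and fibroblast cells express Cx43, and their 8 markers summed to 1.41 to 2.15 CPM in beta-enriched, 12.9 to 51.0 CPM in alpha-enriched and 3.41 to 10.2 CPM in delta-enriched libraries. The collagen gene Col1a1 had 0, 116 and 32 counts in alpha replicates 1, 2 and 3, and 0 counts in all beta- and delta-enriched libraries. Col3a1 was similar, with 0, 41 and 6 counts in alpha replicates 1, 2 and 3. Other markers of the 8 were not. Col1a2 had 87, 164 and 61 counts in alpha replicates 1, 2 and 3 and 14, 0 and 11 counts in the delta-enriched libraries. Rgs5 had 23, 37 and 6 counts in the alpha-enriched and 11, 19 and 51 counts in the delta-enriched libraries. The part of such cells in the Gja1 reads was not tested. When low-count genes were kept in the edgeR fit, beta against alpha gave Gja1 an adjusted p of 0.0458 and beta against delta 0.0614. The p-values of that fit are not comparable with those of the main fit. For Gjd2 in beta against alpha it gave 1.67e-60, against 2.26e-06 in the main fit.

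Gjb2 (ENSMUSG00000046352, 14:57098600-57104702), which encodes the epithelial Cx26, had 3, 1 and 0 counts in the beta-enriched libraries, 1, 0 and 0 counts in the alpha-enriched libraries and 0, 3 and 14 counts in the delta-enriched libraries. Delta replicate 3 therefore held 14 of its 22 counts, at 1.80 CPM. The same library had the highest summed acinar markers. Its 12 acinar markers summed to 3073 CPM, against 26.97 to 79.3 CPM in beta-enriched, 68.0 to 602 CPM in alpha-enriched and 113.4 to 243 CPM in the other 2 delta-enriched libraries. Of these 12, Ptf1a had 0 counts and Rbpjl 1 count in delta replicate 3. The duct keratin gene Krt19 had 47 counts there and at most 7 in any other library. The 7 duct markers summed to 577 CPM there, against 451.5 to 490.8 CPM in beta-enriched, 760 to 926 CPM in alpha-enriched and 379 to 518 CPM in the other 2 delta-enriched libraries. The part of exocrine RNA in the Gjb2 reads was not tested.

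**Figure D3:**
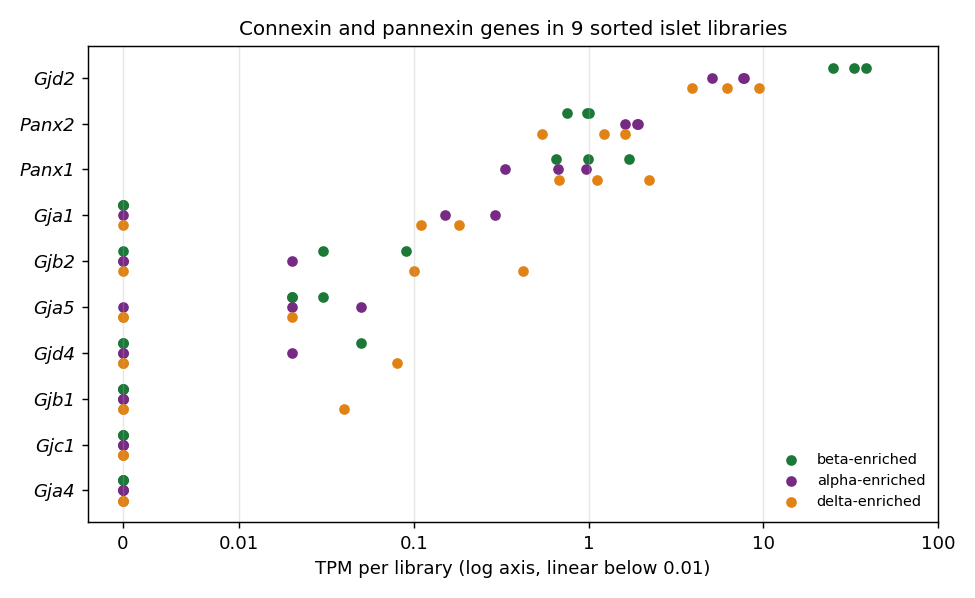
TPM of the 10 connexin and pannexin genes (rows) in each library, on a horizontal log axis that is linear below 0.01 so that 0 can be drawn; points are single libraries of the beta-enriched (top of each row), alpha-enriched (middle) and delta-enriched (bottom) subsets, and points at the same value overlie each other. Gjd2 lies at 3.92 TPM or more in all libraries, the pannexins between 0.33 and 2.22 TPM, and the other 7 genes at 0.42 TPM or less.

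The 13 remaining connexin and pannexin genes had few counts, Gja6 the most with 107 over all 9 libraries. Of these, 4 had 0 counts, Gja3, Gja10 and Gjb6 among them. A further 7, among them Gjb5, Gjc3, Gje1 and Panx3, the pannexin of cartilage and skin, had 1 to 9 counts over all 9 libraries. Gjd3 had 13. Gja6 alone was tested, with 26, 5 and 21 counts in the beta-enriched libraries, 8, 5 and 8 in the alpha-enriched libraries and 3, 8 and 23 in the delta-enriched libraries. Its log2 fold change was 1.52 with SE 0.76 in beta against alpha (adjusted p = 0.165), and it passed in no comparison. Reads from the opposite strand at this locus cannot be told apart here, so the origin of its counts is uncertain.

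The pannexin genes were detected in all 9 libraries at low levels and did not follow the order of Gjd2. Per length, Panx1 averaged 1.12 ± 0.541 TPM in beta-enriched, 0.653 ± 0.315 TPM in alpha-enriched and 1.34 ± 0.793 TPM in delta-enriched libraries (SD, n = 3 each). Panx2 averaged 0.910 ± 0.139 TPM in beta-enriched, 1.81 ± 0.174 TPM in alpha-enriched and 1.13 ± 0.547 TPM in delta-enriched libraries. Gjd2, for comparison, averaged 32.3 ± 6.86 TPM in beta-enriched, 6.83 ± 1.53 TPM in alpha-enriched and 6.52 ± 2.79 TPM in delta-enriched libraries.

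Panx1, the ubiquitous pannexin whose channels release ATP, had its highest mean in the delta-enriched subset. The gene (ENSMUSG00000031934) lies at 9:15002128-15045478 on the minus strand and has 4 annotated transcripts. Its level was 3.72, 2.74 and 5.61 CPM in the beta-enriched libraries, 3.53, 2.14 and 4.37 CPM in the alpha-enriched libraries and 6.69, 10.9 and 6.30 CPM in the delta-enriched libraries, from 16 to 72 counts a library. All 3 delta-enriched libraries lay above all others, with the beta- and alpha-enriched ranges overlapping. Alpha against delta gave a log2 fold change of -1.25 with SE 0.40 (interval -2.09 to -0.40, adjusted p = 0.0309), which is 0.422-fold. Beta against delta gave -0.98 with SE 0.40 (interval -1.82 to -0.13, adjusted p = 0.0756) and did not pass, although the libraries did not overlap. Beta against alpha gave 0.27 with SE 0.41 (interval -0.60 to 1.14, adjusted p = 0.709). The alpha against delta call rested on single libraries, since the adjusted p was 0.0783 without alpha replicate 1, 0.13 without alpha replicate 2 and 0.128 without delta replicate 2, where the log2 fold change was -0.95. On the TPM scale the libraries overlapped (0.96, 0.33 and 0.67 TPM in alpha-enriched, 0.68, 2.22 and 1.12 TPM in delta-enriched) and the call was lost (limma on log2(TPM + 1), -0.47, adjusted p = 0.307). RSEM's effective length for Panx1, by which TPM divides, varied from 1724.6 to 4195.3 bases across libraries.

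Panx2, the pannexin best known from brain, was lower in the beta-enriched than in the alpha-enriched subset. The gene (ENSMUSG00000058441) lies at 15:89059734-89073567 on the plus strand, and an antisense gene, 1810021B22Rik, overlaps its bounds without sharing an exon. Its level was 5.65, 5.83 and 4.62 CPM in the beta-enriched libraries, 11.2, 9.57 and 9.31 CPM in the alpha-enriched libraries and 4.78, 10.7 and 7.71 CPM in the delta-enriched libraries, from 28 to 98 counts a library. The beta- and alpha-enriched libraries did not overlap, while the delta-enriched libraries spread over both. Beta against alpha gave a log2 fold change of -0.90 with SE 0.32 (interval -1.57 to -0.23, adjusted p = 0.0454), which is 0.537-fold. This call lay just inside the threshold and was lost when any single alpha- or beta-enriched library was left out, with adjusted p from 0.0782 (without alpha replicate 3) to 0.157 (without beta replicate 3). Beta against delta gave -0.52 with SE 0.32 (interval -1.20 to 0.16, adjusted p = 0.247), and alpha against delta gave 0.38 with SE 0.31 (interval -0.28 to 1.03, adjusted p = 0.427).

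**Figure D4:**
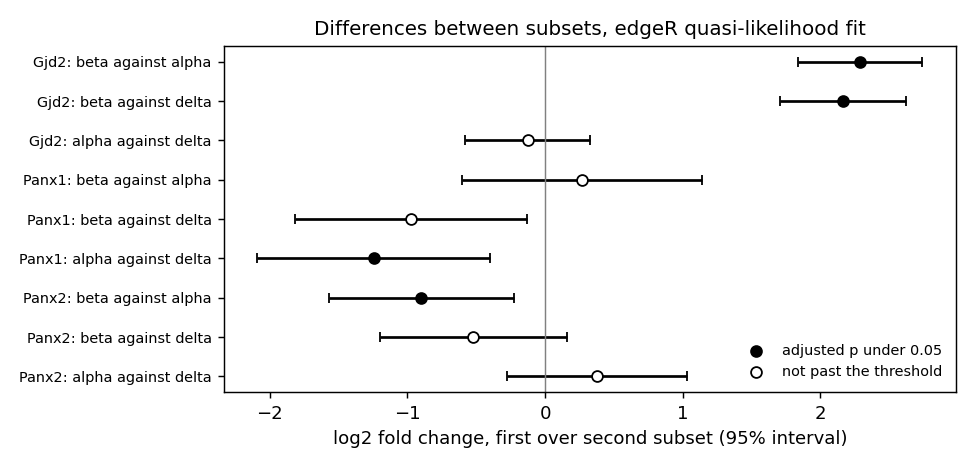
Log2 fold changes (horizontal axis, first subset over second) of Gjd2, Panx1 and Panx2 in the 3 comparisons, with 95% intervals from the edgeR quasi-likelihood fit; filled points passed an adjusted p of 0.05. Gjd2 lies at 2.29 and 2.16 in the beta-enriched comparisons, while the filled pannexin points, -1.25 for Panx1 and -0.90 for Panx2, belong to alpha against delta and beta against alpha.

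Counted over the whole list, 2 of the 10 members passed in beta against alpha (Gjd2 higher, Panx2 lower), 1 in beta against delta (Gjd2 higher) and 1 in alpha against delta (Panx1 lower). Of all 15896 tested genes, 26.6% passed in beta against alpha, 30.6% in beta against delta and 24.3% in alpha against delta. With 3 tested members, such counts are near that background. Groups that did not overlap in CPM were seen for 45.5% of all tested genes in beta against alpha, 42.6% in beta against delta and 36.1% in alpha against delta, and for 2, 2 and 1 of the 3 tested members.

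Proteins that anchor, sort or turn over gap junctions were read from a list of 12 genes, all of them tested. In beta against alpha 4 were higher and 2 lower, in beta against delta 0 were higher and 3 lower, and in alpha against delta 1 was higher and 3 lower. For comparison, 26.6%, 30.6% and 24.3% of all tested genes passed in these comparisons, in either direction. The median log2 fold changes were 0.18, 0.09 and -0.10, against -0.02, -0.02 and -0.01 over all tested genes. Tjp1, which encodes ZO-1, the scaffold that binds connexin tails at the rim of gap junction plaques, averaged 318 ± 19.1 CPM in beta-enriched and 245 ± 18.8 CPM in alpha-enriched libraries (log2 fold change 0.38, SE 0.09, adjusted p = 0.00427).

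Ocln, which encodes the tight junction protein occludin, differed in all 3 comparisons, at 19.0 ± 2.18 CPM in beta-enriched, 8.29 ± 0.763 CPM in alpha-enriched and 47.8 ± 9.75 CPM in delta-enriched libraries. Its log2 fold change was 1.20 in beta against alpha (SE 0.20, adjusted p = 0.00015), -1.33 in beta against delta (SE 0.18, adjusted p = 2.02e-05) and -2.53 in alpha against delta (SE 0.19, adjusted p = 2.68e-08). Dbn1, which encodes the actin-binding protein drebrin, was lower in beta than in delta, at 2.77 ± 0.325 CPM in beta-enriched and 6.68 ± 1.23 CPM in delta-enriched libraries (-1.26, SE 0.33, adjusted p = 0.00746). The alpha-enriched libraries were higher still, at 8.60 ± 1.18 CPM. Src, a kinase gene, was lower in beta than in delta (-0.71, SE 0.25, adjusted p = 0.0414), a call lost in 10 of 20 settings. Tjp3, which encodes ZO-3, was lower in alpha than in delta (-1.27, SE 0.37, adjusted p = 0.0187), a call lost in 7 of 20 settings. Cav1, which encodes caveolin 1 and was singled out after its values were seen, had 0, 2 and 0 counts in the beta-enriched libraries, 40, 50 and 14 counts in the alpha-enriched libraries and 0 counts in all 3 delta-enriched libraries. Cav1 is also expressed by the smooth muscle, endothelial and fibroblast cells whose markers are given above.

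Calmodulin and calmodulin-dependent kinase II, which bind Cx36, were read from a list of 7 genes, 6 of them tested. In beta against alpha 0 were higher and 2 lower, in beta against delta 0 were higher and 2 lower, and in alpha against delta 1 was higher and 0 lower, with medians of -0.10, -0.34 and -0.04. The shares of all tested genes that passed in either direction were 26.6%, 30.6% and 24.3%, in the same order. Camk2d, which encodes a subunit of the kinase, averaged 44.8 ± 1.53 CPM in beta-enriched, 156 ± 19.3 CPM in alpha-enriched and 82.55 ± 14.0 CPM in delta-enriched libraries. Its log2 fold change was -1.80 in beta against alpha (SE 0.13, adjusted p = 1.32e-08), -0.88 in beta against delta (SE 0.13, adjusted p = 5.02e-05) and 0.92 in alpha against delta (SE 0.13, adjusted p = 3.07e-05). Calm2, a calmodulin gene, averaged 164 ± 10.8 CPM in beta-enriched, 241 ± 28.1 CPM in alpha-enriched and 243 ± 31.4 CPM in delta-enriched libraries. It was lower in beta than in alpha (-0.56, SE 0.11, adjusted p = 0.000945). Against delta it was lower as well (-0.57, SE 0.11, adjusted p = 0.000689). Calmodulin genes are close copies of each other, among which RSEM shares reads.

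Other routes of nucleotide release and the genes that sense or break down extracellular ATP were read from a list of 20 genes, of which 11 were tested. In beta against alpha 3 were higher and 3 lower, in beta against delta 3 were higher and 2 lower, and in alpha against delta 2 were higher and 4 lower, with medians of 0.06, -0.27 and -0.16. Over all tested genes, the shares that passed in either direction were 26.6%, 30.6% and 24.3%. Entpd3, which encodes a surface enzyme that hydrolyses ATP, averaged 123 ± 6.78 CPM in beta-enriched, 34.05 ± 1.27 CPM in alpha-enriched and 58.7 ± 1.06 CPM in delta-enriched libraries. In beta against alpha it was higher (1.85, SE 0.11, adjusted p = 6.82e-10), as it was in beta against delta (1.07, SE 0.10, adjusted p = 3.93e-07), and in alpha against delta it was lower (-0.79, SE 0.11, adjusted p = 2.6e-05). P2rx4, which encodes an ATP-gated cation channel, averaged 47.3 ± 1.11 CPM in beta-enriched, 46.7 ± 4.82 CPM in alpha-enriched and 29.6 ± 4.31 CPM in delta-enriched libraries. It was higher in beta than in delta (0.67, SE 0.14, adjusted p = 0.00145) and in alpha than in delta (0.66, SE 0.14, adjusted p = 0.00237).

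The subunit genes Lrrc8b and Lrrc8d of the volume-regulated anion channel, another pore that releases ATP, differed in opposite directions in beta against alpha. Lrrc8b averaged 13.6 ± 2.94 CPM in beta-enriched, 34.4 ± 3.69 CPM in alpha-enriched and 124 ± 5.01 CPM in delta-enriched libraries. Its log2 fold change was -1.34 in beta against alpha (SE 0.15, adjusted p = 2.75e-06) and -3.19 in beta against delta (SE 0.15, adjusted p = 5.36e-11). Lrrc8d averaged 146 ± 13.3 CPM in beta-enriched, 85.8 ± 5.43 CPM in alpha-enriched and 124 ± 4.63 CPM in delta-enriched libraries. It was higher in beta than in alpha (0.77, SE 0.10, adjusted p = 1.55e-05) and lower in alpha than in delta (-0.53, SE 0.10, adjusted p = 0.000869). Lrrc8c, singled out after its values were seen, had 0, 1 and 0 counts in the beta-enriched libraries, 32, 40 and 29 counts in the alpha-enriched libraries and 7, 19 and 37 counts in the delta-enriched libraries. Those counts separate the beta-enriched libraries from all 6 others, which was known when the gene was picked. Groups did not overlap in CPM for 45.5% of all tested genes in beta against alpha and 42.6% in beta against delta.

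Rest encodes a repressor of neuronal genes that is known to act on the Gjd2 gene, and it was read with 5 of its partners. Of these 6 genes, 0 were higher and 0 lower in beta against alpha, 0 were higher and 1 lower in beta against delta, and 0 were higher and 0 lower in alpha against delta, with medians of 0.03, -0.08 and -0.02. Among all tested genes 26.6%, 30.6% and 24.3% passed, in either direction. Rest itself was the 1 of the 6 that passed. It had 0, 0 and 5 counts in the beta-enriched libraries, 19, 20 and 4 counts in the alpha-enriched libraries and 41, 20 and 24 counts in the delta-enriched libraries. Its log2 fold change in beta against delta was -3.82 with SE 0.95 (adjusted p = 0.00512), and in beta against alpha it was -2.68 with SE 0.98 (adjusted p = 0.0518). Beta replicate 3 held all 5 beta-enriched counts and overlapped alpha replicate 3. Without beta replicate 3 the fitted log2 fold change in beta against delta was -7.85, a value that rests on the 0 counts of the remaining beta-enriched libraries.

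With limma on log2(TPM + 1), a scale that called fewer genes in all, the calls named above were lost for Tjp1, Calm2, Lrrc8d, Entpd3 in alpha against delta, P2rx4, Dbn1, Rest, Src, Tjp3 and Camk2d in beta against delta. The calls for Ocln, Lrrc8b, Entpd3 in the beta-enriched comparisons and Camk2d in beta against alpha and alpha against delta were kept.

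As a description over the 9 libraries, with no p, protein-coding genes of at least 5 CPM were ordered by Pearson's r of log2(CPM + 1) with each detected member, out of 10304 candidates. Most like Gjd2 were Trp53inp2 (r = 0.992), P2ry12 (r = 0.987), Olfr1322 (r = 0.987) and Atp2a3 (r = 0.985). Atp2a3, which encodes a calcium pump of the endoplasmic reticulum, averaged 495 CPM in beta-enriched, 131 CPM in alpha-enriched and 145 CPM in delta-enriched libraries. P2ry12, which encodes a receptor for ADP, averaged 10.3 CPM in beta-enriched, 3.35 CPM in alpha-enriched and 3.18 CPM in delta-enriched libraries. Most like Panx2 were Nova2 (r = 0.957), Gigyf1 (r = 0.953), Zbtb4 (r = 0.945) and Slc7a6 (r = 0.944). Most like Panx1 were Pisd (r = 0.940), AI837181 (r = 0.939), Ddx25 (r = 0.938) and Cd46 (r = 0.936). The 9 points fall into 3 subsets and share library depth.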

How the data were processed

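RNA from 9 sorted islet libraries was sequenced as 75-base paired-end reads from a strand-specific kit with 20 ng of RNA each, per the labels' protocols. The authors deposited expected counts, TPM and FPKM per gene and library, per the file headers, and a normalised table, a signal per gene that holds 17993 genes. The submitters' processing notes name the build GRCm38.p6, DESeq2 1.22.1, R 3.5.1, RSEM and STAR 2.5.2b. The RSEM version and the strand setting of counting were not stated in the sources used here. RSEM shares reads among genes, so that 6.94% to 8.66% of genes in a library carried a fractional expected count. The deposited FPKM values entered no test.

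Expected counts were rounded and fitted for all 9 libraries with edgeR 4.0.16 under R 4.3.3 (filterByExpr, TMM, robust quasi-likelihood, 1 coefficient per subset). Each difference was tested 2-sided over all 15896 genes, at 0.05 after Benjamini-Hochberg adjustment. Every adjusted p is from this test unless another tool is named, SE is that of a log2 fold change, and intervals are 95%. Reads were not collapsed by molecular identifiers here. Gene identifiers, all 55536, were matched to GENCODE M21 of GRCm38, and promoters are from the RefSeq table of GRCm38.p6. The fit was also run on simulated counts with 1 common spread for all genes. That setting lacks the differences in spread between genes, so it does not bear on single calls here.

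All 10 members were named, and of each other list, per comparison, up to 3 genes past the test with the highest mean TPM. Some genes taken by this rule are not reported. The members and lists were chosen with earlier results of these data known. Alternatives were other scaling factors, filters on low counts, DESeq2 1.42.0, limma 3.58.1 on log2(TPM + 1), log2(TPM + 0.1) and the deposited normalised table, fits of only the compared subsets, a block for the replicate number, and leaving out each library, or beta replicate 2 with delta replicate 3. Marker lists for immune and Schwann cells were also read. Immune markers summed to 1.93 to 3.80 CPM in beta-enriched, 1.26 to 2.40 CPM in alpha-enriched and 0.546 to 3.48 CPM in delta-enriched libraries, with Ptprc, Adgre1 and Cd3e at 0. Schwann markers summed to 5.94 to 11.5 CPM in beta-enriched, 11.05 to 16.4 CPM in alpha-enriched and 15.2 to 29.8 CPM in delta-enriched libraries, with Foxd3 and Cdh19 at 0.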

Additional observations from a re-analysis of the deposited data

How the results depend on the processing

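Over the 20 alternative settings, the 1 member past the test in beta against delta was found in every setting. In beta against alpha the 2 members became 1 with limma on log2(TPM + 1), on log2(TPM + 0.1) and on the deposited normalised table, and without beta replicate 2 and delta replicate 3 together, and ran from 1 to 2 with any 1 library left out. In alpha against delta the 1 member became 0 with limma on log2(TPM + 1), on log2(TPM + 0.1) and on the normalised table, and ran from 0 to 1 with any 1 library left out. With no filter on low counts the 2 members in beta against alpha were Gjd2 and Gja1, since Panx2 then had an adjusted p of 0.0526. Gja1 rested there on 16 counts in the alpha-enriched libraries, in a fit whose p-values differ widely from those of the main fit. The shares of Gjd2 were read in 4 settings, not in all 20. By counts in place of TPM, the mean shares moved by less than the spread between libraries. Leaving out 1 of 3 libraries cannot move a mean by more than that spread, so those settings were no test of it. Differences past no threshold changed sign for Panx1 in beta against alpha without beta replicate 3, where it ran from -0.0355 to 0.497 over the fits that left out 1 library. They also did for Gjd2 in alpha against delta, which was 0.105 with limma on log2(TPM + 1), 0.128 on log2(TPM + 0.1), and from -0.321 to 0.178 with 1 library left out, above 0 without alpha replicate 2 or delta replicate 2. The cause was not tested.

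Over all genes, 4231, 4869 and 3868 passed in beta against alpha, beta against delta and alpha against delta, and 1765, 2446 and 1807 with limma on log2(TPM + 1) or 1819, 2480 and 1782 on log2(TPM + 0.1). These scales moved the median gene by 0.16 and 0.18 (beta against delta) and by 0.21 and 0.24 (alpha against delta) on the log2 scale. The share of calls that were higher in alpha against delta was 45.2%, and 55.3% on log2(TPM + 0.1).

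Replicate numbers recur across subsets. Libraries with the same number had correlations of residuals from 0 to 0.096, against -0.083 to 0.015 for libraries with different numbers. The 0 was that of beta replicate 2 with delta replicate 2, and all other same-number pairs lay at 0.035 or above. Beta replicate 2 correlated better with delta replicate 3 (0.015). A small shared part per replicate number was thus seen in most pairs, and its origin was not tested. With a replicate block the member counts were 2, 1 and 1, and 4625, 5241 and 4294 genes passed in all. In that fit the adjusted p of Gjd2 was 0.000407 in beta against alpha and 0.000486 in beta against delta. At 16 to 98 counts a library, counting error limits the pannexin comparisons, and the 7 untested connexins are limited by their counts.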
